A study of Mus musculus with 4 samples.

Results

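The D cyclins and their partners in G1 control were followed as a set of 10 genes in the gene count table of mouse dorsal and medial palliums at E11.5. The set holds the D cyclins Ccnd1, Ccnd2 and Ccnd3, the kinases Cdk4 and Cdk6, the E cyclins Ccne1 and Ccne2, the CDK inhibitor Cdkn1b, and the pocket protein genes Rb1 and Rbl1. The genes were chosen by name, with earlier results of these data known, and all 10 were found among the 16449 genes of the table. The table held raw read counts from Nanopore long-read sequencing of 4 libraries, 2 labelled wild-type (WT) and 2 labelled Tut1 knockout. In the knockout, a floxed Tut1 allele (Tut1 f/f) is recombined by Emx1-Cre, which acts in neural stem and progenitor cells of the pallium, while the same piece of tissue also holds blood, vessel and microglial cells of other origin. Recombination removes exon 2 of Tut1, whose product adds uridines to the end of U6 snRNA. The labels say no more of the controls than WT, the study lists these libraries as Tut1 f/f embryos without Cre, and how many embryos went into a library is not stated. It is likewise not stated that replicates came from separate embryos, so p-values measure only the spread between these libraries.

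A cell leaves G1 when D cyclins bound to Cdk4 or Cdk6, and then E cyclins bound to Cdk2, phosphorylate the pocket proteins, which otherwise hold E2F factors silent. E2F factors pair with DP proteins and switch on genes of DNA replication, while inhibitors such as p27 (Cdkn1b) and p21 (Cdkn1a) restrain the kinases. In the developing cortex, the balance of these genes goes with the choice between another division and neuronal differentiation, and Ccnd2 is known as a cyclin of dividing radial glia.

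Library totals were small, from 305642 to 397150 counts, and for the 5878 tested genes the median count lay at 19 to 25 in a library. Tut1 itself had 6 and 11 counts in WT against 29 and 25 in the knockout-labelled libraries, which was higher and not lower (log2 fold change 1.71 ± 0.40, SE; edgeR quasi-likelihood test, adjusted p = 0.0113). The adjusted p was 0.1328 without WT replicate 1, 0.2002 and 0.1603 without knockout-labelled replicates 1 and 2, and 0.6064 in DESeq2 run without its independent filter. With 6 counts in WT replicate 1, Tut1 passed the filter on low counts through the knockout-labelled libraries. Exon 2 is not resolved by counts summed over a gene, so these data did not check the genotype, and every direction given follows the labels. WT replicate 1 was the only library with Xist counts (64) and had no count of 4 Y-linked genes, so it alone was female. WT replicate 2 had 71 Y-linked counts, so the WT libraries came from different embryos. For the knockout-labelled libraries, both with Y-linked counts, this is not known. Pallial progenitor genes were present in every library, with 93 to 137 counts of Pax6 and 23 to 62 of Emx2.

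Of the D cyclins Ccnd2 (ENSMUSG00000000184; GRCm38 chromosome 6, 127125162 to 127152193, minus strand) was by far the most abundant. It took 94.4% to 97.2% of all D cyclin counts in each library and ranked 19 among all genes by total count. WT replicates 1 and 2 held 1764 and 1507 of its counts, and knockout-labelled replicates 1 and 2 held 1629 and 1505. Scaled to library size (CPM, counts scaled to TMM-adjusted totals), its level was 5343 and 4209 CPM in WT against 4329 and 5227 CPM. Each genotype thus had 1 high and 1 low library, and the groups overlapped fully. Mean levels were 4776 ± 802 CPM (SD, n = 2) for WT and 4778 ± 635 CPM (SD, n = 2) for the knockout label. The log2 fold change was -2e-04 ± 0.10 (SE; edgeR, adjusted p = 0.9997), with a 95% interval of -0.21 to 0.21, or 0.864-fold to 1.16-fold. Of the 10 genes Ccnd2 was measured most tightly, and at its SE a 1.29-fold difference would have been called. In whole tissue, fewer cells of a type and less RNA per cell cannot be told apart, here and for every gene that follows.

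**Figure D1:**
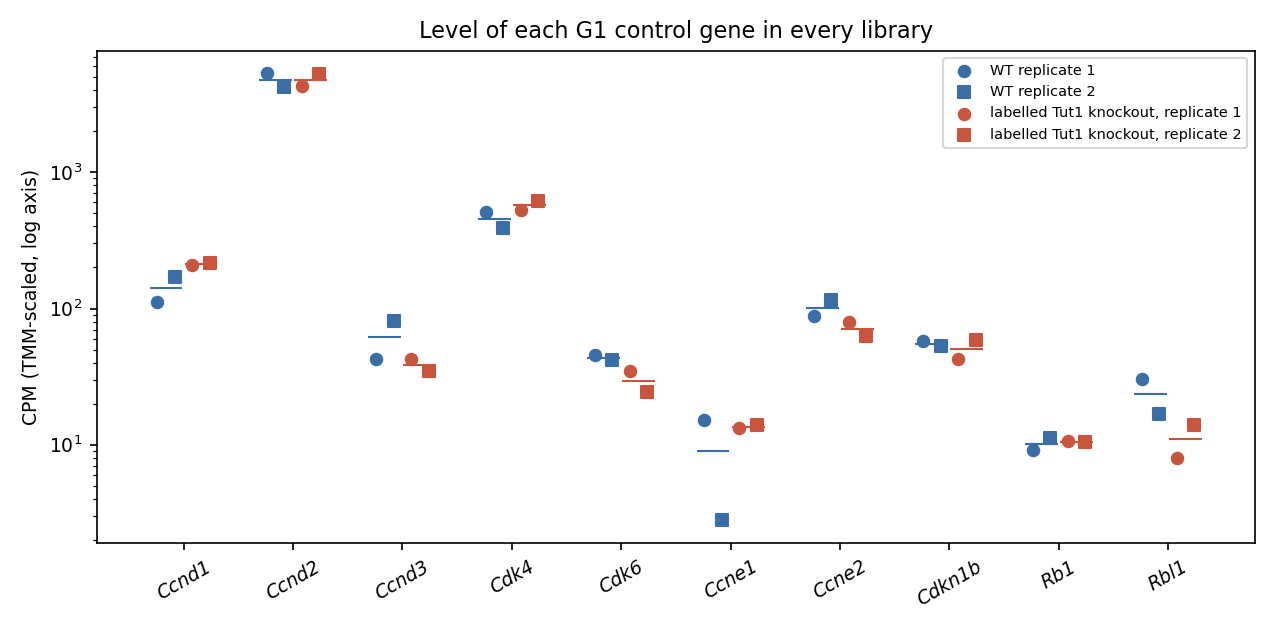
Level of each of the 10 genes in every library, in CPM on a log axis. Circles are replicate 1 and squares replicate 2, blue is WT and red is labelled Tut1 knockout, and lines mark group means (n = 2). Ccnd2 lies between 4209 and 5343 CPM, above the other genes shown, while Ccne1, Rb1 and Rbl1 rest on 1 to 10 counts.

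None of the 10 genes passed the threshold between genotypes. The counts of 3 genes did not pass the filter on low counts (Ccne1, Rb1 and Rbl1), and of the 7 tested genes 0 were called at an adjusted p below 0.05 by edgeR's quasi-likelihood test, against 2.06% of all tested genes. One of the 7, Ccnd1, had an unadjusted p below 0.05, a level that 14.2% of all tested genes reached. DESeq2 also called 0 of the 7, with 0 below an unadjusted p of 0.05 (3.71% of all tested genes), and limma-voom called 0, with 2 below it (13.6% of all tested genes). DESeq2 gave no adjusted p for 3 of them. Of the 7, 2 had a log2 fold change above 0 and 5 below, with a median of -0.15 beside -0.01 over all tested genes. For both knockout-labelled libraries, levels exceeded those of both WT libraries for Ccnd1 and Cdk4 (22.1% of all tested genes did so), and below both for Cdk6 and Ccne2 (20.8% of all tested genes). With so few genes and shares of this size over all genes, nothing particular to the set can be read from these counts.

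**Figure D2:**
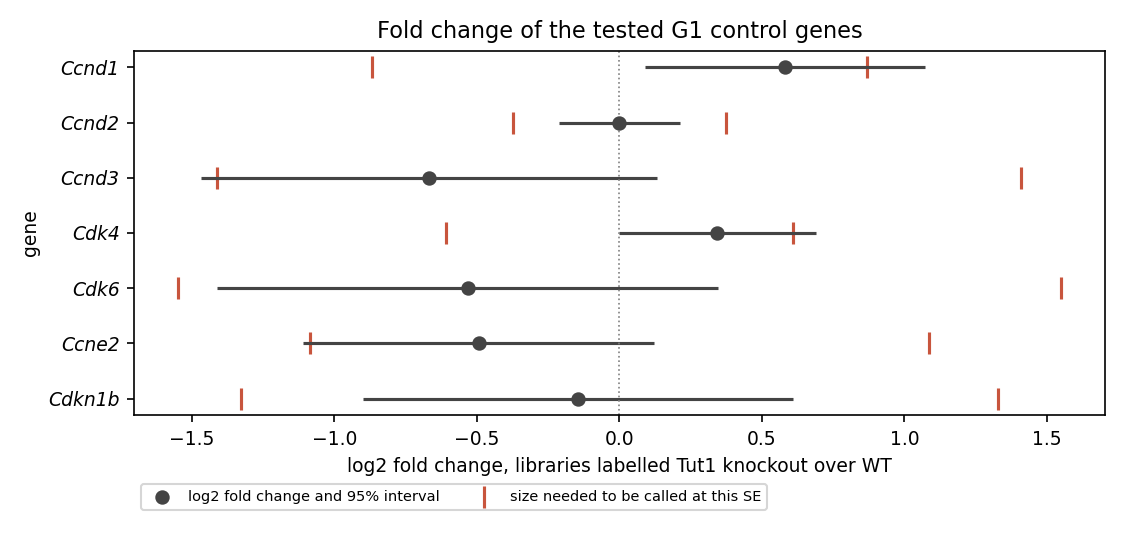
Log2 fold change of the 7 tested genes, libraries labelled Tut1 knockout over WT. Points and bars are the edgeR estimate with its 95% interval (2 libraries a group), and red ticks mark the size at which a gene with that SE would have been called. No point reaches its tick, and the interval of Ccnd2, from -0.21 to 0.21, is the shortest.

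Ccnd1 (chromosome 7, 144929931 to 144939925, minus strand), the D cyclin induced by growth and Wnt signals in many tissues, differed most among the well-counted members. It had 37 and 61 counts in WT against 79 and 62 in the knockout-labelled libraries, or 112 and 170.4 CPM against 209.9 and 215 CPM. WT replicate 1 was low and the other 3 libraries lay closer together, without overlap between the groups. The means were 141 ± 41.2 CPM and 213 ± 3.82 CPM (SD, n = 2 each), and the log2 fold change was 0.58 ± 0.24 (SE; edgeR, unadjusted p = 0.02202, adjusted p = 0.241), with a 95% interval of 0.09 to 1.07. A 1.82-fold difference would have been needed for a call, against the 1.5-fold estimate. Without WT replicate 1, the female library, the log2 fold change was 0.31, and without WT replicate 2 it was 0.91. Ccnd1 accounted for 2.04% (95% Wilson interval 1.48 to 2.80) and 3.82% (2.99 to 4.88) of D cyclin counts in WT, and for 4.58% (3.69 to 5.67) and 3.93% (3.08 to 5.01) in the knockout-labelled libraries. The interval of WT replicate 1 lay below those of the other 3 libraries, which overlapped one another. These intervals cover counting error only. No exact permutation test of 2 against 2 libraries can give a two-sided p below 0.333, so shares were not tested.

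**Figure D3:**
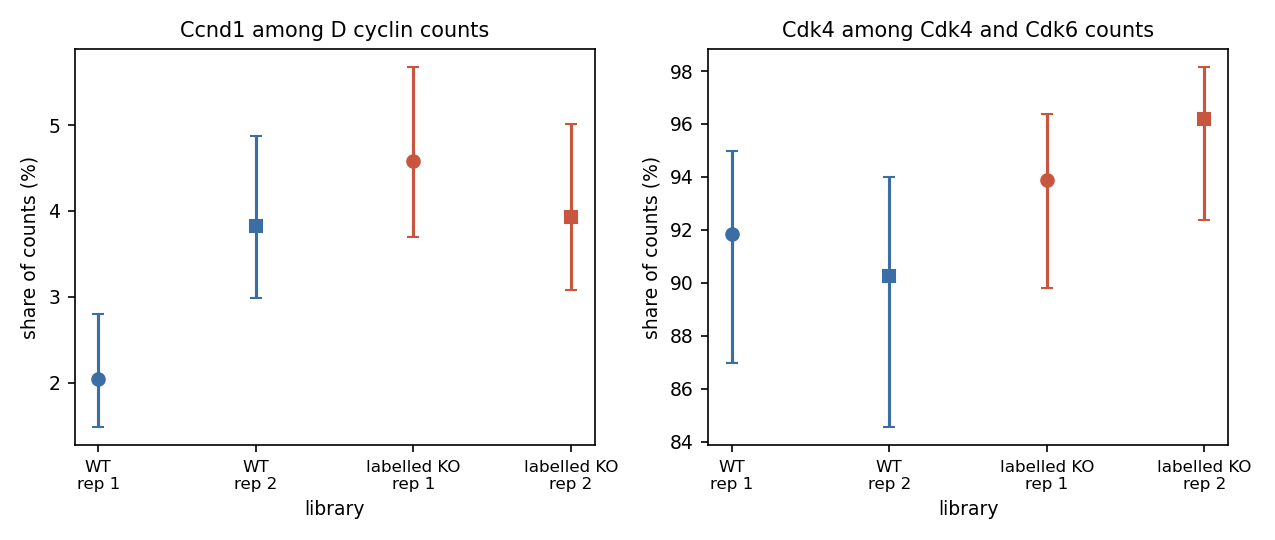
Share of Ccnd1 among D cyclin counts (left) and of Cdk4 among Cdk4 and Cdk6 counts (right), in percent, for each library with its 95% Wilson interval. Blue is WT and red is labelled Tut1 knockout, and the axes do not start at 0. WT replicate 1 has the lowest Ccnd1 share, 2.04%, while all 4 Cdk4 shares lie between 90.3% and 96.2% with overlapping intervals.

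Ccnd3, the third D cyclin and one best known from blood lineages, was scarce. Its counts were 14 and 29 in WT against 16 and 10 in the knockout-labelled libraries, or 42.4 and 81.0 CPM against 42.5 and 34.7 CPM. WT replicate 2 stood above the rest, and WT replicate 1 was level with the knockout-labelled libraries. The log2 fold change was -0.67 ± 0.40 (SE; edgeR, adjusted p = 0.4815), with a 95% interval of -1.47 to 0.13, and it was -0.13 without WT replicate 2 and -1.05 without WT replicate 1.

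Cdk4 (chromosome 10, 127063534 to 127067920, plus strand) was the main G1 kinase by counts. It had 169 and 139 counts in WT against 199 and 177 in the knockout-labelled libraries, or 512 and 388 CPM against 529 and 615 CPM. Both knockout-labelled libraries were higher than both WT libraries, but the gap to WT replicate 1 was small. The log2 fold change was 0.34 ± 0.17 (SE; edgeR, unadjusted p = 0.05161, adjusted p = 0.3586), with a 95% interval of -0.0025 to 0.69. Without WT replicate 2 it was 0.14, and without WT replicate 1 it was 0.55. Cdk6, the alternative partner of the D cyclins, had 15 and 15 counts in WT against 13 and 7 in the knockout-labelled libraries, or 45.4 and 41.9 CPM against 34.5 and 24.3 CPM. The groups did not overlap, yet the counts were few, and the log2 fold change was -0.53 ± 0.43 (SE; edgeR, adjusted p = 0.6508), with a 95% interval of -1.41 to 0.35. Its estimate was -0.83 without replicate 1 labelled knockout and -0.33 without replicate 2. Only a 2.92-fold difference in Cdk6 would have been called. Cdk4 made up 91.8% and 90.3% of the counts of both kinases in WT and 93.9% and 96.2% in the knockout-labelled libraries, with overlapping Wilson intervals.

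Ccne2 was the more abundant E cyclin in each library. It had 29 and 41 counts in WT against 30 and 18 in the knockout-labelled libraries, or 87.8 and 115 CPM against 79.7 and 62.5 CPM. Both knockout-labelled libraries lay below both WT libraries, with little between WT replicate 1 and replicate 1 labelled knockout. The log2 fold change was -0.49 ± 0.30 (SE; edgeR, adjusted p = 0.508), with a 95% interval of -1.11 to 0.12, and it was -0.30 without WT replicate 2. Ccne1 had 5 and 1 counts in WT against 5 and 4 in the knockout-labelled libraries, and it did not pass the filter.

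Cdkn1b, which encodes the inhibitor p27 that builds up as progenitors leave the cycle, had 19 and 19 counts in WT against 16 and 17 in the knockout-labelled libraries. In CPM these were 57.6 and 53.1 against 42.5 and 59.0, and the groups overlapped. The log2 fold change was -0.15 ± 0.37 (SE; edgeR, adjusted p = 0.9173), with a 95% interval of -0.90 to 0.61. It turned to 0.10 without replicate 1 labelled knockout, and a 2.51-fold difference would have been needed for a call. The p27 protein is known to be set largely by its degradation, which transcript counts do not measure.

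The pocket protein genes rested on few counts. Rb1 had 3 and 4 counts in WT against 4 and 3 in the knockout-labelled libraries, and Rbl1, which encodes p107, had 10 and 6 against 3 and 4. Both Rbl1 counts were lower in the knockout-labelled libraries, but the Poisson 95% intervals of 6 counts (2.20 to 13.1) and of 4 counts (1.09 to 10.2) overlapped widely. In an edgeR fit with no filter on low counts, the log2 fold change of Rbl1 was -1.11 ± 0.65 (SE; adjusted p = 0.7139), that of Rb1 0.05 ± 0.81 (adjusted p = 0.9929) and that of Ccne1 0.61 ± 0.79 (adjusted p = 0.8618).

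Levels of different genes were compared per kb of the longest annotated transcript, as the mean over the 4 libraries. Ccnd2 was first with 755 CPM per kb (range over libraries 665 to 844), followed by Cdk4 with 249 (189 to 299) and Ccnd1 with 47.3 (29.97 to 57.6). Ccne2 with 28.7 (20.8 to 38.1), Ccnd3 with 13.0 (9.003 to 20.995) and Cdkn1b with 11.7 (9.34 to 13.0) came next. Ccne1 with 5.64, Rbl1 with 3.54, Cdk6 with 3.17 and Rb1 with 2.22 CPM per kb were last. Ccnd2 and Cdk4 were each separated from the next gene by more than the spread over libraries, and so were Cdkn1b and Ccne1, whereas every other pair of neighbours in the order overlapped. With the median transcript length in place of the longest, Ccnd2, Cdk4 and Ccnd3 kept their ranks of 1, 2 and 5 and the other 7 genes moved. Within a library, Ccnd2 exceeded Ccnd1 per kb by 28.2-fold and 14.6-fold in WT and by 12.2-fold and 14.3-fold in the knockout-labelled libraries. Cdk4 exceeded Cdk6 per kb by 63.3-fold and 52.0-fold in WT and by 85.9-fold and 141.9-fold in the knockout-labelled libraries, on a scale where Cdk6 has a long transcript and at most 15 counts. These folds depend on the length used. Long reads can span a whole transcript, so counts need not grow with its length. Values per kb may therefore understate genes with long transcripts. Unscaled for length, mean levels were 450 CPM for Cdk4 against 43.7 for Cdk6 in WT, and 572 against 29.4 in the knockout label. By total count, Cdk6 ranked 4646 among all genes, ahead of Rbl1 (7308) and Ccne1 (8663). On the mean level per kb, Ccnd2 exceeded Ccnd1 by 15.95-fold with the longest transcript and 59.5-fold with the median transcript, and Cdk4 exceeded Cdk6 by 78.5-fold and 22.15-fold.

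Reads could in principle be exchanged between these genes and similar or overlapping ones, since the handling of strand and of multiple matches is not stated. Among the members the longest shared alignments were 486 bases at 73.1% identity between Ccnd2 and Ccnd3, 458 bases at 73.4% between Cdk4 and Cdk6, and 434 bases at 76.3% between Ccnd1 and Ccnd2, and shorter stretches of other pairs were more alike. The processed pseudogene Ccnd3-ps matched Ccnd3 over 881 bases at 96.3% identity and Gm7158 matched Cdk4 over 911 bases at 88.3%, and neither was listed in the count table. Of the genes on the opposite strand, Lto1 at Ccnd1 had 20 to 25 counts in each library (adjusted p = 0.9538, edgeR), Tspan31 at Cdk4 had 8, 11, 21 and 7, Ints8 at Ccne2 had 8 to 13 and Bysl at Ccnd3 had 5 to 8. Rcbtb2 at Rb1 had 73, 91, 96 and 64 counts, far more than Rb1 itself. Their part in the counts of the members was not tested.

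Promoters of 300 bases (250 before to 50 after the start) from RefSeq on GRCm38.p6 were held for 6 of the 10 genes, Ccnd3, Cdk4, Cdk6, Cdkn1b, Rbl1 and Ccne1, and not for Ccnd1, Ccnd2, Rb1 and Ccne2. They were searched on both strands for the E2F words TTTCCCGC, TTTCGCGC, TTTGCCGC and TTTGGCGC, and for the E-box CACGTG read by Myc family factors, because both kinds of factor act in this pathway. The E2F words occurred in 2.26% of all 32851 promoter windows and the E-box in 7.15%. Among the members, 1 E2F word was found, in Rbl1 (minus strand, chr2:157204545-157204552), starting 18 bases before the transcription start. Cdk4 (plus strand) held 4 E-boxes, at chr10:127063363-127063368, chr10:127063417-127063422, chr10:127063437-127063442 and chr10:127063524-127063529. Cdk6 (plus strand) held 1 E-box, at chr5:3343673-3343678, and the other windows of members held neither word. Windows with 4 or more E-boxes made up 0.0244% of all windows, and Cdk4 was singled out for its number after the search. All 6 matches are given with 11 bases on each side and the word in capitals, to let the wording of the sites be compared. A match describes these letters and not binding.
Rbl1, E2F: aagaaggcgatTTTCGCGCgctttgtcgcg
Cdk4, E-box 1: tggcagccagtCACGTGccacacagcgt
Cdk4, E-box 2: agtcaaggggtCACGTGggatagcaaca
Cdk4, E-box 3: tagcaacaggtCACGTGgccgtcagggc
Cdk4, E-box 4: agggtgaagatCACGTGtccagaacgtc
Cdk6, E-box: ttctgcggcccCACGTGggtgaaccccc

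The genes around the set were then counted by list. Among other CDK inhibitors, 2 of 6 were tested and 1 was called, beside 2.06% of all tested genes called in either direction. With so few tested, this is no share of the list. The called gene, Cdkn1a, had only 5 counts in WT replicate 1 and passed the filter on low counts through the knockout-labelled libraries. Cdkn1a, which encodes p21, rose from 5 and 13 counts in WT to 37 and 27 (log2 fold change 1.87 ± 0.39, SE; edgeR, adjusted p = 0.0047). Cdkn1c, which encodes p57, had the most counts of the list, 51 and 45 in WT against 92 and 42, and its log2 fold change was 0.51 ± 0.25 (adjusted p = 0.3649), or 0.06 without knockout-labelled replicate 1 and 0.81 without replicate 2. The call of Cdkn1a was lost in DESeq2 run without its independent filter (adjusted p = 0.393), and without WT replicate 1 (0.0819), knockout-labelled replicate 1 (0.2002) or knockout-labelled replicate 2 (0.08597).

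Of 10 E2F and DP factors 4 were tested, and 1 was called, beside 2.06% of all tested genes called in either direction. Tfdp1, which encodes the DP1 partner of the E2F factors, fell from 102 and 122 counts in WT to 58 and 53 (log2 fold change -0.95 ± 0.21, SE; edgeR, adjusted p = 0.00728). Both knockout-labelled libraries lay well below both WT libraries. Tfdp2, with the most counts of the list (86 and 109 against 102 and 53), gave -0.29 ± 0.21 on the log2 scale (adjusted p = 0.5919), or -0.06 without knockout-labelled replicate 2 and -0.62 without replicate 1. The median of the 4 was -0.53, beside -0.01 over all tested genes. The call of Tfdp1 was lost in DESeq2 (adjusted p = 0.2015), and without WT replicate 2 (0.06652), knockout-labelled replicate 1 (0.2721) or knockout-labelled replicate 2 (0.07354).

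EdgeR called no gene in 3 further lists of the pathway. Of 16 other G1/S regulators 10 were tested, 0 were called, 8 had a log2 fold change below 0 and the median was -0.29, or -0.12 without WT replicate 1 and -0.53 without knockout-labelled replicate 1. Cul1, a scaffold of the ubiquitin ligase that acts on p27 and cyclin E, had the most counts among them and a log2 fold change of -0.41 ± 0.23 (SE; edgeR, adjusted p = 0.4463), or -0.15 without WT replicate 1 and -0.65 without WT replicate 2. Of 6 DREAM and MuvB genes 3 were tested and 0 called, with a median of -0.18 that was 0.00 without WT replicate 1 or without knockout-labelled replicate 1 and -0.45 without WT replicate 2, and Rbbp4 had the most counts (log2 fold change -0.32 ± 0.15, adjusted p = 0.3317, and -0.20 without WT replicate 1). Of 20 E2F targets of S phase 17 were tested and 0 called, 12 lay below 0 and the median was -0.26. The median of the E2F targets was -0.04 without WT replicate 1, and -0.13 and -0.42 without knockout-labelled replicates 1 and 2. At an unadjusted p below 0.05, edgeR placed 0 of the other G1/S regulators, 1 of the DREAM and MuvB genes and 2 of the E2F targets, beside 14.2% of all tested genes. DESeq2 called 0 genes of these lists, and over the 16 alternatives 0 or 1 of the E2F targets and 0 of the other genes were called.

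Markers of progenitor mitosis were examined last. All 12 were tested, all 12 had a log2 fold change below 0, and the median was -0.46. Of these, 2 were called lower, beside 2.06% of all tested genes called in either direction, and 10 did not pass. Mki67, which encodes the proliferation antigen Ki-67, fell from 210 and 167 counts in WT to 122 and 97 (log2 fold change -0.74 ± 0.18 SE, edgeR adjusted p = 0.01734). By Ki67 staining and BrdU labelling, the study found comparable proliferation in WT and knockout palliums at E11.5. Those assays count positive cells and do not measure RNA. Cenpf, which encodes a kinetochore protein and had the most counts of the list, fell from 572 and 585 to 421 and 374 (log2 fold change -0.48 ± 0.12, adjusted p = 0.0287). With total counts in place of TMM all 12 lay below 0, and 11 of 12 did so without WT replicate 1, without knockout-labelled replicate 2 or after thinning to the smallest library. Cenpf was not called with total counts (adjusted p = 0.06094) or after thinning (0.06521), DESeq2 called neither, and 0 to 1 of the 12 were called when a library was left out. Ccnd2, with its interval of -0.21 to 0.21, and these markers, with a median of -0.46, were measured in the same libraries. Whether the difference between Ccnd2 and the markers exceeds chance was not tested.

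**Figure D4:**
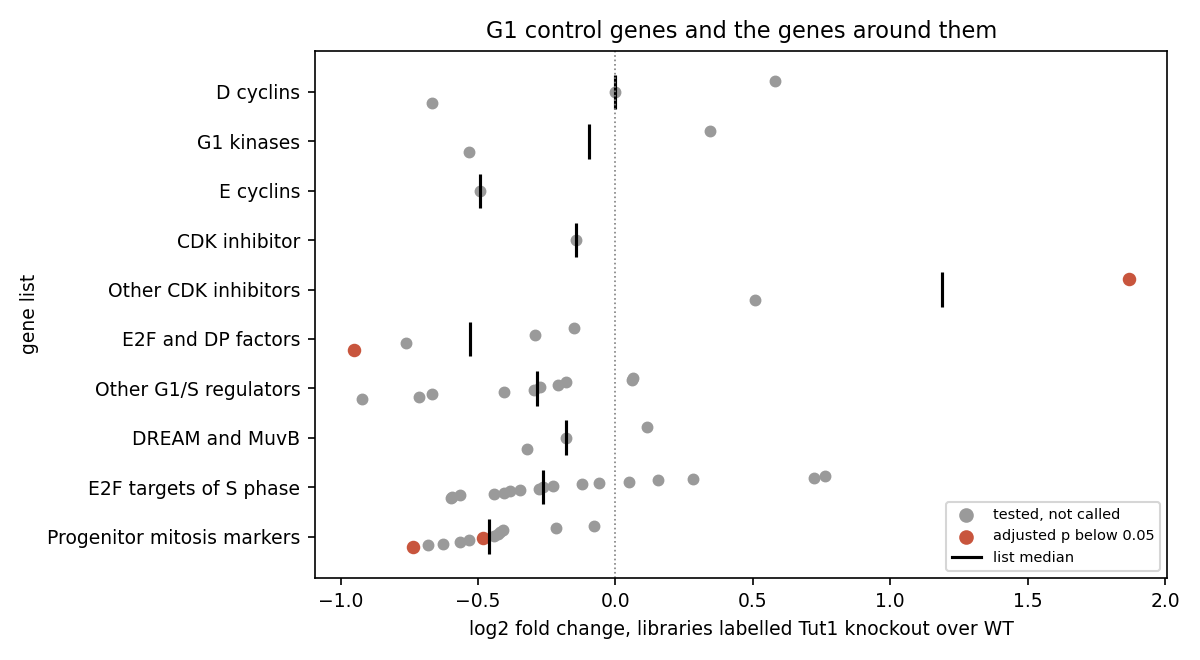
Log2 fold change of every tested gene of the D cyclin and G1 control set and of the surrounding pathway lists, libraries labelled Tut1 knockout over WT. Each point is a gene, red points have an adjusted p below 0.05 (edgeR), and black lines mark list medians. No member of the set is red, Cdkn1a is the red point at 1.87, and Tfdp1, Mki67 and Cenpf are the red points below 0.

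Values for markers of other cells are given beside those of Ccnd1 and Cdk4. Of 15 intermediate progenitor and neuron markers, 10 were tested, 10 had a log2 fold change above 0 and 2 were called higher, Mapt and Dcx, which encode microtubule proteins of neurons, beside 2.06% of all tested genes called in either direction. Some of the 10, such as Gap43 (4 and 8 counts in WT against 19 and 10), passed the filter through the knockout-labelled libraries. The summed level of this list was 1447 to 1515 CPM in WT and 2164 to 2381 CPM in the knockout-labelled libraries, and Reln had 0 and 0 counts in WT against 4 and 3. Dcx had 36 and 36 counts in WT against 86 and 70 (log2 fold change 1.17 ± 0.24, SE; edgeR, adjusted p = 0.004612). Of 8 microglia markers 4 were tested and 4 were called higher (Cx3cr1, Aif1, Csf1r and Tyrobp). All but Csf1r had fewer than 10 counts in each WT library and passed the filter through the knockout-labelled libraries, so this is no count over the list. The summed level of the 8 was 96.9 to 106 CPM in WT and 337 to 409 CPM in the knockout-labelled libraries. The 4 untested microglia genes had at most 5 counts in any library, with C1qa at 0 and 0 in WT against 1 and 2, Fcer1g at 0 and 0 against 3 and 0, and C1qb at 0 and 1 against 0 and 0. Of 8 mesenchyme and meninges markers 4 were tested and 1, Col1a2, was called higher, which with 3 and 7 counts in WT against 27 and 16 also passed the filter through the knockout-labelled libraries. Their summed level was 103 and 268 CPM in WT replicates 1 and 2 and 476 and 320 CPM in the knockout-labelled libraries. WT replicate 1, the lowest library for Ccnd1, was also the lowest in the summed level of the mesenchyme, microglia, endothelial, ventral forebrain and red cell lists. Of 6 endothelial markers 2 were tested and 0 called (0 at an unadjusted p below 0.05, and 0 by DESeq2 and limma-voom), with summed levels of 96.9 to 106 CPM and 170.2 to 181 CPM. Of 9 ventral forebrain markers 2 were tested and 1, Dlx1, was called higher, with summed levels of 15.1 and 72.6 CPM in WT and 186 and 97.3 CPM in the knockout-labelled libraries. Both tested genes passed the filter in the same way, Dlx1 with 0 and 8 counts in WT against 34 and 14 and Gad2 with 0 and 8 against 16 and 11. Dlx2 had 0 and 0 counts in WT against 2 and 1, Dlx5 0 and 0 against 2 and 0, and Gsx2 0 and 2 against 0 and 0. Of 6 red cell markers 4 were tested and 1, Hbb-bh1, was called lower, with summed levels of 800 to 1109 CPM and 868 to 1262 CPM. Of the 4, 2 lay above 0 and 2 below, and Hba-x had 15 and 24 counts in WT against 43 and 36 (log2 fold change 1.07 ± 0.31, SE; edgeR, adjusted p = 0.05625). Of 10 neural stem and radial glia markers 8 were tested and 1, Lhx2, was called lower, with summed levels of 2000 to 2211 CPM in WT and 1307 to 1497 CPM in the knockout-labelled libraries. Of the 8, 6 lay below 0 and 2 above, and without Lhx2 the summed level was 1157 to 1240.1 CPM in WT and 1026 to 1129 CPM in the knockout-labelled libraries. DESeq2, with or without its independent filter, called Mapt and Lhx2 among these markers and none of the other genes named, and limma-voom did not call Tyrobp (adjusted p = 0.1187) or Col1a2 (0.08719). Tyrobp was also not called after thinning (0.06272). Without knockout-labelled replicate 1 the only one of them still called was Mapt (adjusted p = 0.02953), while Lhx2 was at 0.05389, Dcx at 0.1598 and 0 of the 4 microglia genes passed. Without knockout-labelled replicate 2, Dcx (0.0899), Dlx1 (0.07354), Col1a2 (0.08397) and Hbb-bh1 (0.0899) were not called and 2 microglia genes were. Without WT replicate 1, Dlx1 (0.09466), Col1a2 (0.1267) and 2 microglia genes were not called, and without WT replicate 2 Hbb-bh1 (0.5654) was not. The part of these cells in the levels of the D cyclins and kinases was not tested.

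The genes whose levels followed Ccnd1 and Ccnd2 most closely over the 4 libraries were looked up among 1245 other genes with a mean count of 50 or more. The measure was the root mean square difference of log2 CPM after centring each gene on its own mean. For Ccnd1 these were Rgs2 (0.07), Apcdd1 (0.09) and mt-Rnr1 (0.12), with a median over all candidates of 0.43. Rgs2 had 44 and 72 counts in WT against 97 and 66 in the knockout-labelled libraries, so it was lowest in WT replicate 1, as Ccnd1 was. Apcdd1, which encodes an inhibitor of Wnt signalling, had 60 and 98 against 112 and 103. For Ccnd2 they were Tcp1 (0.03), a chaperonin subunit, Slc38a1 (0.03), an amino acid transporter, and U2af1 (0.04), a splicing factor subunit, with a median of 0.23, and Tcp1 had 57 and 47 counts in WT against 51 and 46 in the knockout-labelled libraries. With 4 libraries such likeness only describes these samples.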

How the data were processed

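Dorsal and medial palliums at E11.5 were measured in 4 libraries, 2 WT and 2 labelled Tut1 knockout. The deposited table holds raw counts per gene, which the authors made from poly(A)-enriched Nanopore reads with minimap2 and FLAIR on GRCm38. The summing of isoforms and the use of strand are not stated. Symbols, positions and transcript lengths came from GENCODE M21, which matched 16436 identifiers and left 13 unmatched, and promoters from RefSeq.

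Counts were tested in R 4.3.3 with edgeR 4.0.16. The filter was filterByExpr (minimum count 10, minimum total 15), libraries were scaled by TMM, and groups were compared by the quasi-likelihood test, two-sided, with Benjamini-Hochberg adjustment over all 5878 tested genes. It called 121 genes at an adjusted p below 0.05, 82 of them higher. The SE was taken as the size of the log2 fold change over the root of its F statistic. The size needed for a call is the log2 fold change at which a gene with that SE would reach the largest unadjusted p among the genes called. Chi-square tests over genes gave 1.64 per degree of freedom between the WT replicates and 1.49 between the others. Both lay above the value of 1 that counting alone gives, and each library was counted separately. This excess does not show that replicates came from separate embryos. Pseudogenes were matched by BLAST at 300 or more bases and 80% identity. Alternatives used DESeq2 1.42.0 and limma 3.58.1, and the procedure was tested on simulated data.

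The 10 members were always named. From each pathway list, every gene called and the gene with the most counts were named, and Tut1, Cdkn1a, Mki67 and Dcx were always given. The gene with the most counts among the E2F targets is not reported here. The genes nearest in pattern to Ccnd1 and Ccnd2 were the 3 with the smallest difference. Called marker genes, markers at 0 in WT and a few others were named by their values. The members and lists were chosen with earlier results of these data known.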

Additional observations from a re-analysis of the deposited data

How the results depend on the processing

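No member was called under any of the 16 alternatives. The number of genes called in all was 121. It fell to 12 in DESeq2 and 9 without its independent filter, to 76 with the replicate number as a block (which also ended the calls of Cenpf, adjusted p = 0.05947, and Tyrobp, 0.05567), and ranged from 3 (without knockout-labelled replicate 1) to 108 when a library was left out, taking the single library left in a group to vary as the other group did. Deviations from the group means correlated at -0.06 over genes between libraries of the same number. With only 2 pairs, this cannot show whether the replicate numbers pair the libraries. Total counts only gave 129 calls, 105 of them higher, against 82 of 121. The log2 fold change of Ccnd2, -2e-04, turned to 0.061 with total counts only, to 1.775e-05 in both forms of DESeq2, to 0.0032 with the block, and ranged from -0.17 to 0.17 when a library was left out, and that of Cdkn1b from -0.37 to 0.10. Per kb of the median transcript, the ranks were 3 for Ccne2, 4 for Ccnd1, 6 for Rb1, 7 for Cdk6, 8 for Cdkn1b, 9 for Ccne1 and 10 for Rbl1. The cause of these shifts was not tested. The mean share of Ccnd1 among D cyclin counts ranged from 2.04% to 3.82% in WT and from 3.93% to 4.58% in the libraries labelled knockout when a library was left out. For the tested members other than Ccnd2 and Cdk4, a call would have needed a difference of at least 1.82-fold. The part of depth in this was not tested.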
